A study of Homo sapiens with 3 samples.

Results

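Genes for 35 factors that hold RNA polymerase II near promoters, release it into elongation or end transcription were examined for MYC occupancy in parental U2OS cells, a human osteosarcoma cell line. The members were a named list of genes, all 35 of which matched a RefSeq symbol on GRCh38, among 19974 protein-coding genes of chromosomes 1 to 22 and X. A peak was assigned to a gene where its summit, the base of highest signal, lay inside the annotated span or within 5000 bp of it. The series comprised 2 MYC immunoprecipitations (IP), which the design text calls biological replicates, and 1 input library without antibody, from ChIP-Rx, in which crosslinked mouse NIH3T3 fibroblasts were added to the human cells before shearing as an outside reference. The labels name no treatment and no engineered allele, and both IP libraries are represented by 1 list of 9818 peaks, so no value below has a replicate error.

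After initiation, RNA polymerase II commonly pauses shortly downstream of the start, held by DSIF and the negative elongation factor NELF. The kinase P-TEFb, made of CDK9 and a cyclin T and kept inactive in the 7SK particle by HEXIM proteins, phosphorylates these factors and the polymerase and so releases it. Elongation is then carried by SPT6, the PAF1 complex and FACT, and it ends when the transcript is cleaved and the exonuclease XRN2 catches up with the polymerase. MYC, which binds the E-box CACGTG together with MAX, is known to act on pause release in many cell types.

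MYC peaks were found at the starts of 30 of the 35 genes (85.7%), counting a summit within 1000 bp of a RefSeq gene start. Over all protein-coding genes the same share was 39.0% (7787 genes). The 5 genes with no peak there, NELFE, CDK7, CCNK, LEO1 and ELL2, also had none elsewhere in the gene or within 5000 bp. In that wider range, 30 of the 35 members thus had a summit, beside 47.7% of all protein-coding genes. The heights of the 30 peaks were less unlike those of other genes. The median fold enrichment of IP over control at the summit was 9.25 (quartiles 7.12 and 14.2), beside 8.35 (5.89 and 12.6) for all bound protein-coding genes, and 18 of the 30 lay above that second median. The fold and the −log10 q, the peak caller's confidence after correction for multiple tests, are the authors' own values for each peak. The list was chosen with earlier results in view, so these shares are descriptions and no test was made of them.

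**Figure D1:**
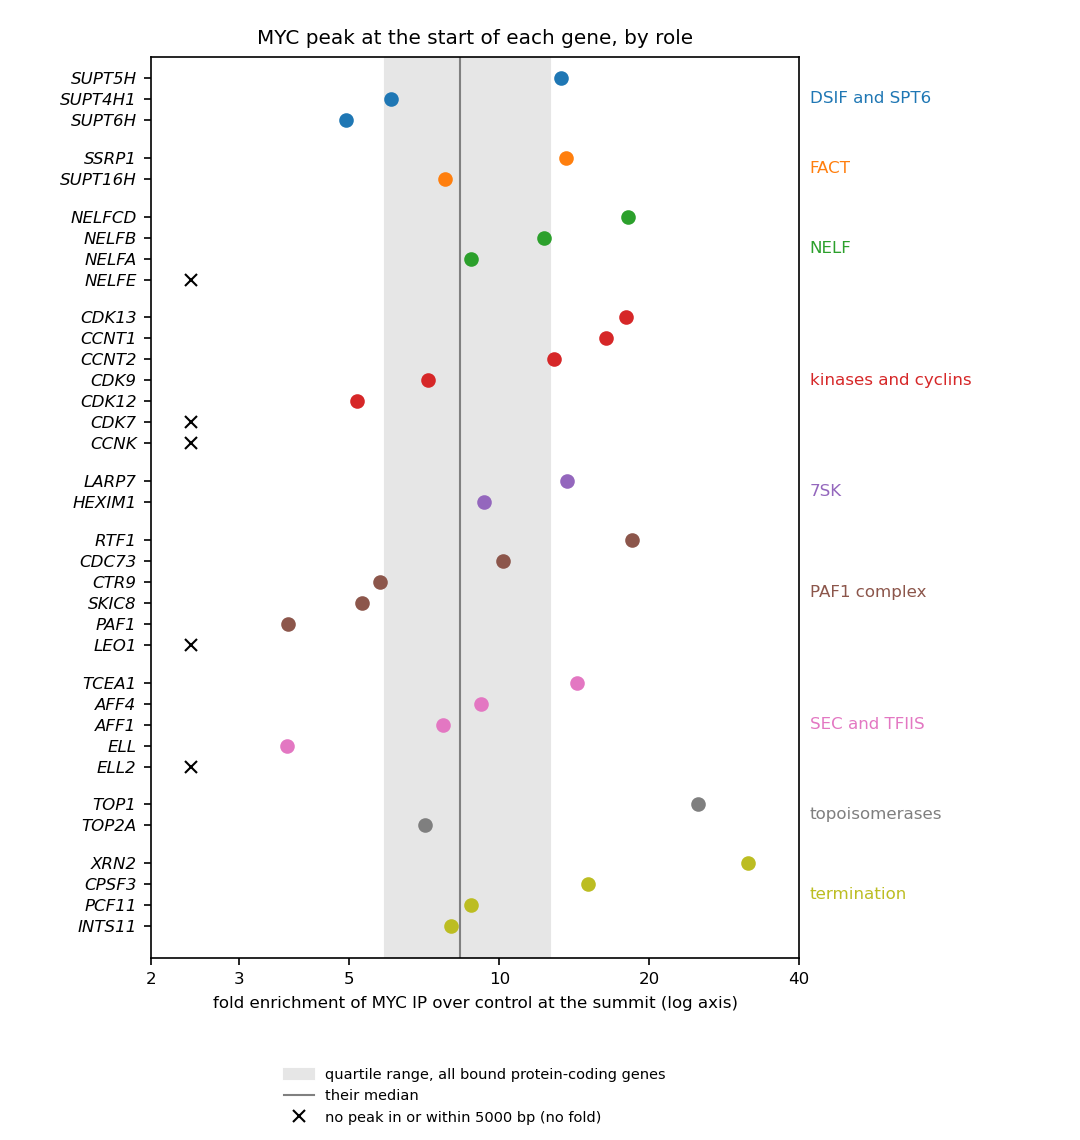
Fold enrichment of the MYC peak at the start of each gene (horizontal log axis, linear ratio of IP over control at the summit), 1 point per gene, grouped and coloured by role, with crosses for the 5 genes without a peak. The grey band and line give the quartiles (5.89 and 12.6) and median (8.35) of all bound protein-coding genes, and XRN2 (31.5) and TOP1 (25.1) stand farthest to the right.

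Promoter sequences are shown for the 4 bound genes of the list with a CACGTG in the RefSeq window, XRN2, CCNT1, AFF4 and SUPT16H, and for the 2 with the highest −log10 q and none, TOP1 and CDK13. Each runs 5′ to 3′ on the strand of the gene, from 250 bases before the start through the first 30 transcribed bases (RefSeq, GRCh38.p14), and capitals mark CACGTG.
XRN2: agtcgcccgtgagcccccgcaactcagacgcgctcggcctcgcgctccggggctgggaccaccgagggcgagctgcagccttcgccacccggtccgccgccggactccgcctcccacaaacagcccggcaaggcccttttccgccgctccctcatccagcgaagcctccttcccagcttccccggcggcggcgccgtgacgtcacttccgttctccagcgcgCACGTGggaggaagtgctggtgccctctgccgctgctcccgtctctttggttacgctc
CCNT1: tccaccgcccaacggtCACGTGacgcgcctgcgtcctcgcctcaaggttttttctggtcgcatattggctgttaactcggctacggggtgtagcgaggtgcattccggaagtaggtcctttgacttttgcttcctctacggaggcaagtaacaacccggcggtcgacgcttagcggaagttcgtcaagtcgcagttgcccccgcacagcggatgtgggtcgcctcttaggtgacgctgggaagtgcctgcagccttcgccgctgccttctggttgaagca
AFF4: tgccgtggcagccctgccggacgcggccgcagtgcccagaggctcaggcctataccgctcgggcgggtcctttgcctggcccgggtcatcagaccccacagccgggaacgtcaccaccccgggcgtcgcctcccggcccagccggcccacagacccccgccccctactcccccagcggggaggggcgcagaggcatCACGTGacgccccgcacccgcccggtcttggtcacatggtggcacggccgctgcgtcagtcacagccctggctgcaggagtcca
SUPT16H: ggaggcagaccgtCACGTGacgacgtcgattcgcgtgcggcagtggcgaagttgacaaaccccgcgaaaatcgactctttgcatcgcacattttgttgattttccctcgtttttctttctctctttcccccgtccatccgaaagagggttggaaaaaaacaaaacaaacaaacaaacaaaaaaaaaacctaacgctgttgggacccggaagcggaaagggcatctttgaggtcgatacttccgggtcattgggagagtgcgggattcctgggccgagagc
TOP1: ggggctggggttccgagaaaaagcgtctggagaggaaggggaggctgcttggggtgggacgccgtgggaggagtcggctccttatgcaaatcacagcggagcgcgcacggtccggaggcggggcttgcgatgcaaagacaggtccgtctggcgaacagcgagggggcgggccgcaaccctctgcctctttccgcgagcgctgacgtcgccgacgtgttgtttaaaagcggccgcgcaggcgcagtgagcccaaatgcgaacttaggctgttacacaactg
CDK13: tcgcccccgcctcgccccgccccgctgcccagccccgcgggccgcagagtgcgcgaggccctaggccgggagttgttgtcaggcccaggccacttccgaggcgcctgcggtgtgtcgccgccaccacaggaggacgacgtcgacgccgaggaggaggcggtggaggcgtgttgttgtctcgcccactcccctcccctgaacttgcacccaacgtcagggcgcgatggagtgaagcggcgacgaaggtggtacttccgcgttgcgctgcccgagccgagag
The XRN2 window is chr20:21303081-21303360 on the plus strand, that of CCNT1 chr12:48716678-48716957 on the minus strand and that of AFF4 chr5:132963605-132963884 on the minus strand. The SUPT16H window is chr14:21383990-21384269 on the minus strand, and those of TOP1 (chr20:41028572-41028851) and CDK13 (chr7:39950006-39950285) are on the plus strand.

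The E-box was uncommon in these promoter windows. Windows of 300 bases, from 250 before the most upstream RefSeq start to 50 after it, were listed for 32 members, and 5 of them (15.6%) held CACGTG, which reads the same on both strands. The share was 8.82% over the windows of all protein-coding genes, 12.3% over bound genes and 6.37% over genes not bound. Of the 28 bound members with a window, 4 (14.3%) held it and 24 did not, close to the share of all bound genes. The summit lay inside the window at only 16 of these 28, and sequence at the other summits was not searched. A window without CACGTG therefore does not mean a peak without it.

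Where an E-box was present, it lay near the summit. Its centre was 6.5 bp from the summit at XRN2, 9.5 bp at AFF4, 30.5 bp at SUPT16H and 79.5 bp at CCNT1, so that all 4 lay within 100 bp, as did 59.6% of the 806 bound genes with a CACGTG in the window. The median distance over those 806 genes was 51.5 bp, and the window can hold only sites near the start. The 4 genes had folds from 7.79 to 31.5 (median 12.8). The 24 bound members with no E-box in the window had folds from 3.75 to 25.1 (median 8.77), and the ranges overlapped. Over all bound genes the medians were 10.4 with and 8.22 without CACGTG. The fifth E-box, with its first base 14 bp before a start, belonged to CDK7, which had no peak.

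The related form CACGCG was also searched on both strands, as were the form CATGTG, the form CACGAG and the form CATGCG, whose matches on opposite strands can overlap. Counting CACGTG or any of these 4, a motif was present in 16 of 32 member windows (50%), beside 38.7% of all windows and 46.7% of those of bound genes. TOP1, whose peak had the highest −log10 q of the list, and CDK13 held none of the 5 forms in the window. At both genes, however, the summit lay upstream of the 300 bases searched, and sequence beyond them was not used here.

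DSIF, the heterodimer of SPT4 and SPT5 that stays on the polymerase from pausing through elongation, and the histone chaperone SPT6 were all bound. SUPT5H, encoding the large DSIF subunit, had a peak of 963 bp (chromosome 19, 39444871 to 39445833, hg38, as for all positions below) with a fold of 13.3 at a −log10 q of 124, above 77.3% of bound genes by fold. SUPT4H1, encoding its small partner, had a peak with a fold of 6.05 at a −log10 q of 53.4. SUPT6H had a fold of 4.93 at a −log10 q of 28.5 at a summit it shares with SDF2, which encodes a protein of the endoplasmic reticulum. The genes of the 2 DSIF subunits thus differed more than 2 times in fold, on a list without replicate error.

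FACT, which takes apart and rebuilds nucleosomes in the path of the polymerase, also had both of its genes bound. SSRP1 had the higher fold (13.6, −log10 q 112, summit 23 bp upstream of the start). SUPT16H had a fold of 7.79 at a −log10 q of 64.3, but a peak of 1443 bp, wider than that of 91.6% of bound genes, against 661 bp at SSRP1. The SUPT16H summit lay 204 bp upstream of its start, between it and the start of the long noncoding LOC107984643, which was 50 bp away.

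Among the 4 genes of NELF, the complex that stabilises the paused polymerase, 3 were bound and all 3 lay above the median of bound genes. NELFCD (chromosome 20, 58980983 to 58981838) reached a fold of 18.1 at a −log10 q of 142, above 88.6% of bound genes by fold. NELFB had a fold of 12.3 at a −log10 q of 84.3, and NELFA a fold of 8.77 at a −log10 q of 69.2. The fourth gene, NELFE, encodes the RNA-binding subunit and had no peak. It lies in a stretch of chromosome 6 between summits at 28399808 and 33571352, which is 5171544 bp long, holds 173 protein-coding genes and contains no summit at all. This is the stretch with the most protein-coding genes among all 9795 between neighbouring summits, whose median holds 1, and it includes the major histocompatibility complex. Whether reads were mappable or peaks were kept there was not tested, so the lack of a peak at NELFE is given as listed. Without the genes of that stretch, 30 of 34 members were bound, beside 39.3% of protein-coding genes.

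The kinases and cyclins that phosphorylate the polymerase ranged from some of the highest values of the list to none. CDK13, a kinase that acts on the polymerase during elongation, had a peak of 1506 bp (chromosome 7, 39949099 to 39950604) with a fold of 18.0 at a −log10 q of 243, the third highest −log10 q among the members. The summit lay 458 bp upstream of CDK13 and 379 bp from an annotated end of the divergent noncoding transcript CDK13-DT. CDK12, its close relative, had a fold of 5.18 at a −log10 q of 39.0. CCNK, which encodes the cyclin partner of both kinases, had no peak, and the nearest summit was 67789 bp from the gene.

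For P-TEFb itself, both cyclin genes had higher peaks than the kinase gene. CCNT1 had a fold of 16.4 at a −log10 q of 123. CCNT2 had a fold of 12.9 at a −log10 q of 134 in a peak of 1656 bp (chromosome 2, 134917950 to 134919605), and its summit lay 4 bp from the start of the antisense gene CCNT2-AS1. CDK9 had a fold of 7.19 at a −log10 q of 45.6, below the median of bound genes. Its peak began downstream of the start, with the summit 346 bp inside the gene, the farthest downstream of any member with strand. The microRNA genes MIR3960 and MIR2861 start within 1000 bp of the same summit. CDK7, the TFIIH kinase that also activates other CDKs, had no peak. The nearest summit was 45170 bp away, at the edge of a stretch of 2919097 bp with 27 protein-coding genes and no summit. By genes inside, this stretch ranked 25th among those between neighbouring summits. Whether reads were mappable or peaks were kept there was not tested either.

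Both members of the 7SK particle were bound above the median of bound genes. LARP7, which binds and stabilises 7SK RNA, had a peak on chromosome 4 (112636638 to 112637633) with a fold of 13.7 at a −log10 q of 152. It is also the strongest start peak of ZGRF1, a DNA helicase gene, whose start lay 547 bp from the summit. HEXIM1, the P-TEFb inhibitor, had a fold of 9.32 at a −log10 q of 72.3. Its summit lay 591 bp upstream, the greatest distance among the 30 and the only one over 500 bp (9.12% of bound genes have it that far), and its peak ended before the start. A window of 500 bp therefore left HEXIM1 out and no other member.

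The 6 genes of the PAF1 complex, a platform for elongation and histone modification, held both high and low values. RTF1 (chromosome 15, 41416383 to 41417586) had a fold of 18.5 at a −log10 q of 194, above 89.1% of bound genes by fold. CDC73, the parafibromin gene, had a fold of 10.2 but a −log10 q of 23.1, among the 3 lowest of the list, in a peak of 388 bp (chromosome 1, 193121591 to 193121978), the narrowest of the 30. SKIC8 is also a subunit of the SKI complex of RNA decay. By fold, SKIC8 (5.31, −log10 q 33.5) and CTR9 (5.76, −log10 q 37.2) lay below the first quartile of bound genes. PAF1 was lower still, with a fold of 3.76 at a −log10 q of 13.8 (chromosome 19, 39390942 to 39391524), at a promoter shared with the Mediator gene MED29. LEO1 had no peak, and the nearest summit was 122195 bp away.

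The super elongation complex carries P-TEFb to the polymerase. Its genes on the list of members gave values from near the median of bound genes down to none. AFF4, its main scaffold, had a fold of 9.19 at a −log10 q of 85.2 in the widest peak of the list (1805 bp), which spanned the starts of AFF4 and the noncoding AFF4-DT. AFF1, a related scaffold, had peaks at both of its listed starts. The peak at the upstream start, on chromosome 4 from 86934673 to 86935476, had a fold of 7.72 at a −log10 q of 38.8. The peak at the downstream start, from 87006633 to 87007400, had a fold of 3.04 at a −log10 q of 13.3, and no other gene start lay within 1000 bp of its summit. ELL, an elongation factor of the complex, had the lowest fold and −log10 q of all bound members (3.75 and 11.7, chromosome 19, 18521897 to 18522749). ELL2, its relative, had no peak, with the nearest summit 153860 bp away. TCEA1 encodes TFIIS, which restarts backtracked polymerase, and had a fold of 14.3 at a −log10 q of 101.

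The topoisomerases, which relieve the twist that transcription puts on DNA, differed more than 3 times in fold. TOP1 had the highest −log10 q of the list, 401, with a fold of 25.1 in a peak of 1347 bp (chromosome 20, 41027994 to 41029340). This peak ranked 216th of the 9818 by −log10 q. TOP2A, best known for separating chromosomes in dividing cells, had a fold of 7.10 at a −log10 q of 46.1, below the median of bound genes.

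All 4 genes of cleavage and termination were bound. XRN2, the exonuclease that degrades the transcript behind the polymerase, had the highest fold of the list, 31.5, with a −log10 q of 320 (chromosome 20, 21302838 to 21304000), above 97.1% of bound genes by fold. Its summit lay 19 bp upstream of the start, 6.5 bp from the centre of the E-box shown above. CPSF3, the endonuclease that cuts at the polyadenylation site, had a fold of 15.1 at a −log10 q of 120 at a promoter shared with ITGB1BP1. PCF11, which binds the polymerase tail, had a fold of 8.77 at a −log10 q of 49.8. INTS11, the endonuclease of Integrator, had a fold of 7.99 at a −log10 q of 40.6, and CPTP, a lipid transfer gene, starts 89 bp from its summit.

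**Figure D2:**
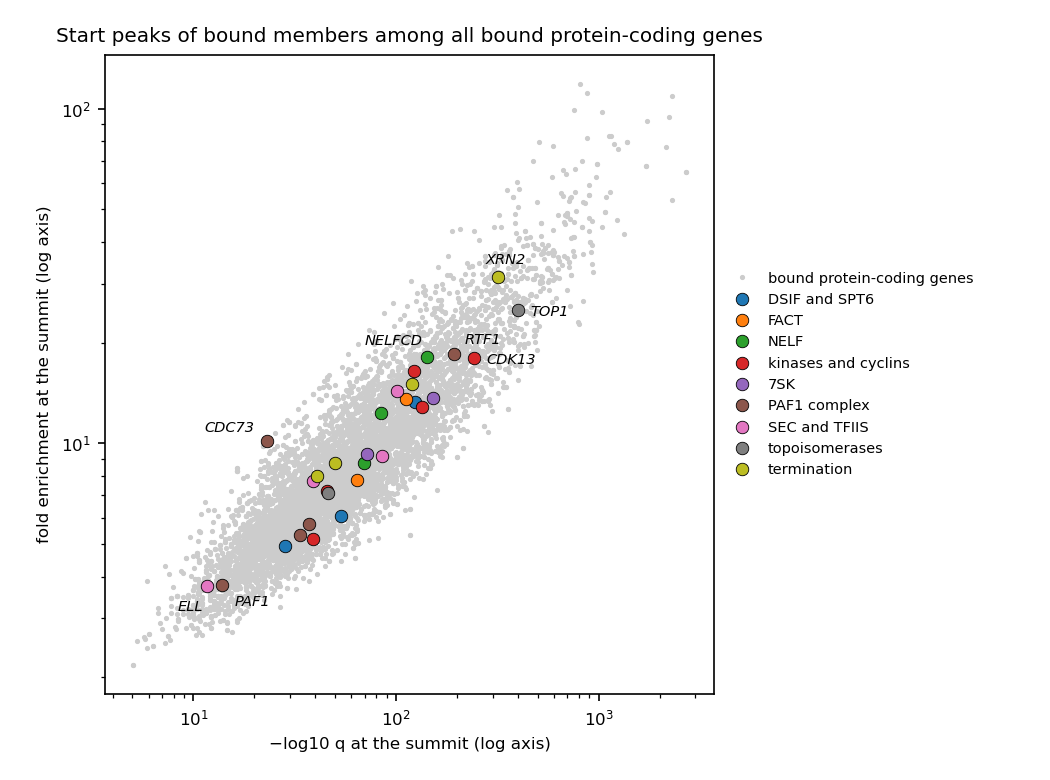
Fold enrichment (vertical log axis) against −log10 q (horizontal log axis) at the strongest start peak, for all 7787 bound protein-coding genes in grey and the 30 bound members coloured by role. Most members follow the band of other genes from ELL (3.75, 11.7) to TOP1 (25.1, 401), while CDC73 lies toward its upper edge with a fold of 10.2 at a −log10 q of 23.1.

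Most of these peaks sat over the start itself. The peak spanned the start in 27 of 30 bound members (90%), beside 89.6% of all bound genes, with CDK9, HEXIM1 and CDC73 as the exceptions. The median distance between summit and start was 119 bp, against 133 bp over all bound genes, and 14 of 30 summits (46.7%) lay within 100 bp, against 42.4%. Of the 28 bound members with a listed strand, 21 (75%) had the summit upstream of the start and 7 downstream, while 58.5% of bound genes had it upstream. The median summit lay 101 bp upstream, beside 32 bp for all bound genes. CDC73 and TCEA1 have no listed strand and were placed by the nearer annotated end. Peaks had a median width of 944 bp, against 836 bp.

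**Figure D3:**
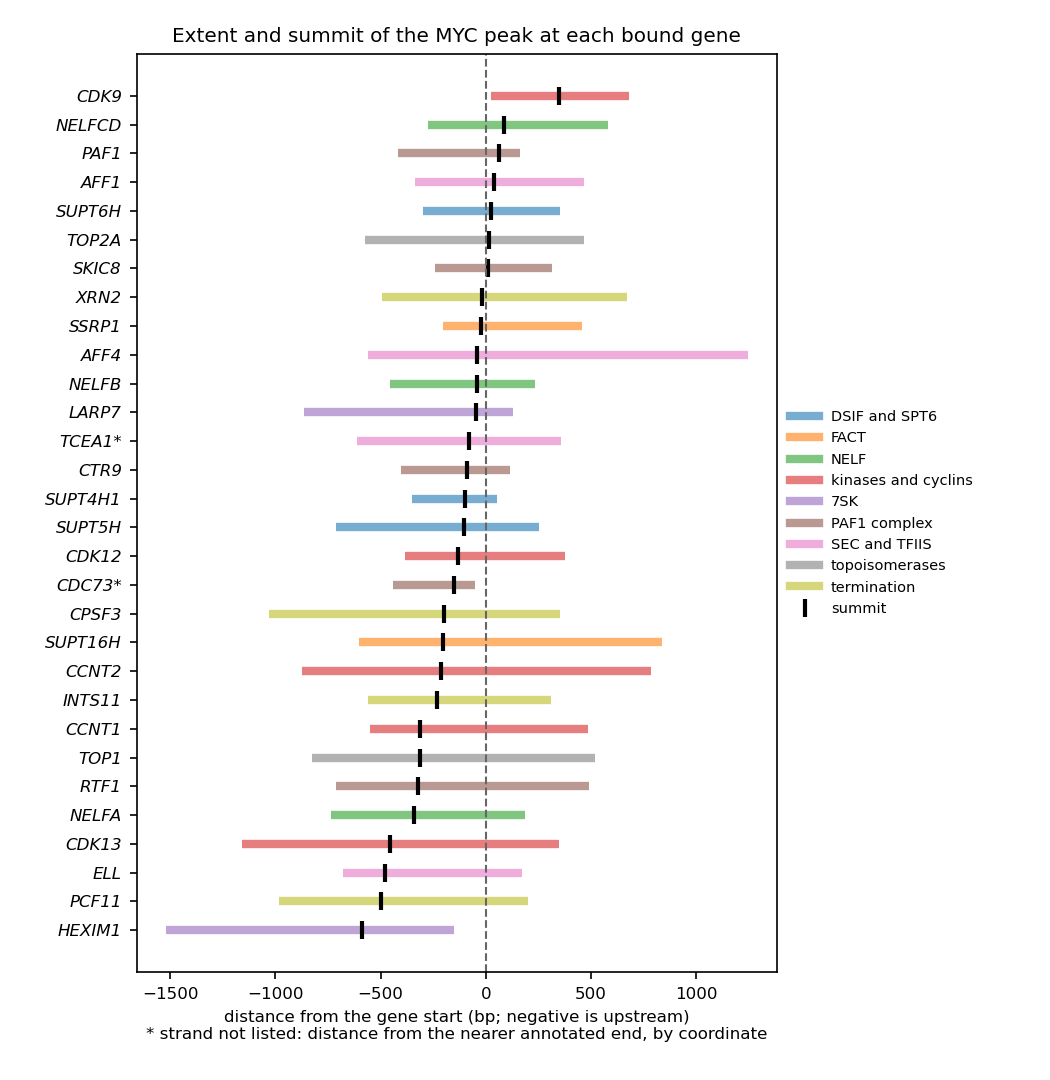
Extent (bars, coloured by role) and summit (black ticks) of the MYC peak at each of the 30 bound genes, plotted as distance in bp from the gene start, with upstream negative. Summits run from 346 bp downstream at CDK9 to 591 bp upstream at HEXIM1, and the bars of CDK9, HEXIM1 and CDC73 do not reach the start.

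Peaks away from the start lay near the starts of neighbouring genes. Besides AFF1, 5 members had a further peak (14.3%, against 14.6% of all protein-coding genes), and in each case its summit lay beyond the far end of the gene and within 1000 bp of the start of another protein-coding gene. Of all pairs of a protein-coding gene and a peak away from its starts, at whichever side or inside, 47.1% had the summit within 1000 bp of another protein-coding start. NELFB had such a peak 3571 bp beyond its end, near TOR4A, with a fold of 21.4 at a −log10 q of 165 that exceeded those at its own start. INTS11 had one 3202 bp beyond its end, near PUSL1 and ACAP3 (fold 9.62, −log10 q 92.1), also above its own. The peaks near TNKS1BP1 beyond SSRP1 (fold 7.79), near TIMM50 beyond SUPT5H (7.29) and near IAH1 beyond CPSF3 (7.31) were lower than those at the starts of the members. The peak near TIMM50, at 4262 bp, was the assigned summit farthest outside a gene, and the nearest summit left out lay 6064 bp from PCF11. No member had a summit inside the gene and over 1000 bp from its starts, as 6.40% of protein-coding genes had.

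Some promoter peaks were shared with a neighbour. Of the 30 start peaks, 12 (40%) were also the strongest start peak of another gene of any class, beside 46.4% over all bound protein-coding genes. In 5 of the 12 the other gene was protein-coding (SDF2, ZGRF1, MED29, CPTP and ITGB1BP1), and in 7 it was noncoding. The median fold was 8.59 at the 12 shared peaks and 9.75 at the 18 others, whereas over all bound genes it was 8.71 for shared and 8.02 for other peaks. To which of the genes at a shared peak the binding relates cannot be told apart here.

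Other genes of the same pathway, 67 of them and none a member, were bound in 54 cases (80.6%), with a median fold of 9.58. All 14 genes of the cleavage and polyadenylation machinery and all 3 Elongin genes were bound, as were 11 of 13 further Integrator genes, INTS3 and INTS6 being the exceptions. MEPCE, which caps 7SK RNA, had the highest −log10 q (712, fold 34.9), above every member, at a peak shared with ZCWPW1. CPSF1, a scaffold of the cleavage complex (−log10 q 409, fold 17.0), INTS2 (336, fold 15.3), the histone methyltransferase gene SETD2 (277, fold 23.5) and INTS1 (275, fold 15.7) followed. The partners of P-TEFb, the super elongation complex and the CDK-activating kinase had the fewest, 7 of 14. The median fold of these 7 was 9.46, and MLLT1 was among them with a fold of 14.2 at a −log10 q of 151. Among the partners without a start peak were MLLT3, ELL3, AFF2, AFF3, EAF1 and CCNH. TCEA3, CTDP1 and PPP1R10 were not bound either, the last in the same peak-free stretch of chromosome 6 as NELFE. AFF3 and TCEA3 each had at least 1 summit elsewhere in the gene or within 5000 bp.

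**Figure D4:**
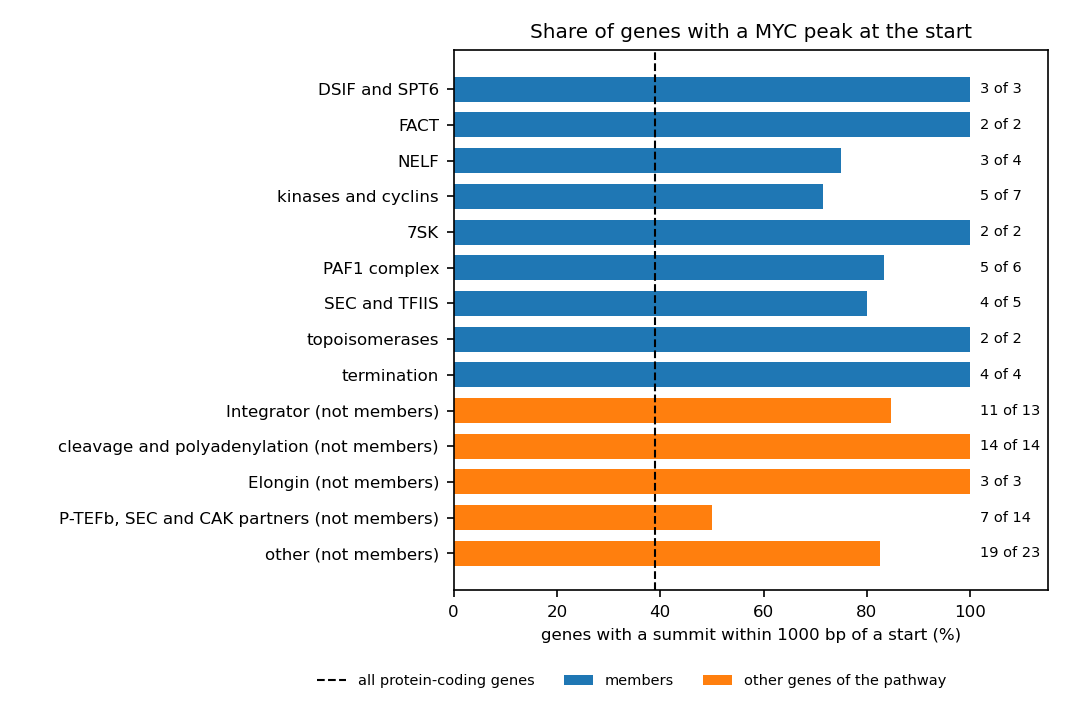
Percentage of genes with a MYC summit within 1000 bp of a start (horizontal axis), for the role groups of the 35 members in blue and for 67 other genes of the pathway in orange, with counts at the right. The dashed line is the share over all protein-coding genes, 39.0%, and the shortest bar is that of P-TEFb, super elongation complex and CDK-activating kinase (CAK) partners at 7 of 14.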

How the data were processed

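MYC ChIP-Rx libraries from U2OS cells were prepared, per the labels' protocols, from chromatin fixed for 10 min and sheared to fragments between 200 and 500 bp, with mouse cells at 10%, 5 ng of DNA per library and 9 PCR cycles. Trimming, alignment and peak calling tools (cutadapt, Bowtie2, SAMtools, Picard, MACS2) and 3 builds (hg38, hg19 and mm10) are named in the submitters' processing notes, without roles. Tool versions, mouse-read scaling and pooling of the IP libraries were not given in the sources used here. The deposited list gives the authors' fold enrichment (a linear ratio), −log10 p-value, −log10 q-value and a whole-number score for each peak, of which the score and p-value were not used. Its lowest −log10 q was 5.00. Depth is unknown, and no test between samples was possible.

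Starts came from RefSeq promoter windows (GRCh38.p14), with up to 2 per member, and from both annotated ends for the 3 members and other genes without a window (15812 of 19974 protein-coding genes have one). For a gene without a window, neighbours included, a start named above is the nearer annotated end. A gene takes its strongest start peak by −log10 q. Percentiles are over the 7787 bound protein-coding genes. The assignment was tested on simulated data (Python 3.11.15, pandas 2.3.3).

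The members and lists were chosen with earlier results of these data known. Full values were to be given for the 8 bound members highest and the 3 lowest by −log10 q, those with 2 or more peaks and those without one, and the 5 strongest other pathway genes, with those not bound named. Some genes that this rule names are not reported here. Counts were repeated with a 500 or 5000 bp window, with a −log10 q of 10 or more, with the stronger 50% of the list, and with any overlapping base, either gene end, the nearest peak, shared peaks counted once and other motif forms.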

Additional observations from a re-analysis of the deposited data

How the results depend on the processing

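Of 42 recomputed values, 38 stayed within 1.5 times of the reported one. The 5000 bp window, any overlapping base and the −log10 q of 10 could not change the count of bound members. The members not bound lay 45170 bp or more from a summit, and the lowest −log10 q of a bound member was 11.7. With the stronger 50% of peaks, those with a −log10 q of at least 47.8, 19 of the 35 members had a start peak (22.1% of all protein-coding genes), and 7 of the 19 shared it, beside 50.6% of the protein-coding genes bound at that setting. The 11 members lost there were SUPT6H, CDK9, CDK12, PAF1, CTR9, CDC73, SKIC8, ELL, AFF1, TOP2A and INTS11. With the same stronger peaks, 20 of the 35 members had a summit in or within 5000 bp, in place of 30 (27.7% of all protein-coding genes). That value lay at the limit of 1.5 times. Without any flank, 9 of the 35 members had a summit inside the annotated span, a share no higher than the 25.9% of all protein-coding genes. Of the 28 bound members with strand, 21 had the summit upstream of the start. Counting any of 5 motif forms gave 16 windows in place of 5, by construction. The count of bound members ran from 28 to 30 under the other alternatives. The 28 were among the 32 members with a listed start, beside 41.5% of protein-coding genes with one. That alternative was chosen after seeing the data, as were any listed start for the E-box and the count without the stretch around NELFE. The median fold ran from 8.98 to 9.25, apart from 13.6 in the stronger 50% of peaks. The unknown depth limits what a missing peak means. No paired analysis was possible because the 2 IP libraries are represented by 1 peak list, and for the same reason neither could be left out.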

Other observations

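Some paralogues within the pathway had unlike peaks and others did not. The pairs below were chosen after their values were seen, and no difference was tested. CDK13 (fold 18.0) exceeded CDK12 (5.18) more than 3 times. Of the TFIIS genes, TCEA1 (14.3) and TCEA2 (8.66) were bound at the start and TCEA3 was not. TOP2B, the topoisomerase II form also found in non-dividing cells (14.9), was higher than TOP2A (7.10). HEXIM2 (12.3) and HEXIM1 (9.32), adjacent genes, had separate peaks. The HEXIM1 summit lay outside the gene, whereas that of HEXIM2 lay inside it, 774 bp upstream of the nearer of its 2 listed starts. The cyclin genes CCNT1 (16.4) and CCNT2 (12.9) were closer to each other. In the AFF family AFF4 and AFF1 were bound at the start and AFF2 and AFF3 were not, and of the ELL genes ELL was bound while ELL2 and ELL3 were not.

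The bases beside the E-boxes of the members were alike. At CCNT1, AFF4, SUPT16H and the unbound CDK7 the motif extends to CACGTGACG on the strand of the gene, so 4 of the 5 member sites have this form on either strand, XRN2 being the exception. It was found at 118 of 914 CACGTG sites (12.9%) in the windows of bound protein-coding genes, and at 163 of 1560 (10.4%) over all windows. The form was searched because it was seen at the sites of the members, the number of sites is small, and no test was made.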
